A study of Arabidopsis thaliana with 4 samples.

Results

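Chromatin loops that span 40 to 200 kb between their anchors were taken from the H3K4me3 ChIA-PET loop lists of *Arabidopsis*, 1 for the wild type Col-0 and 1 for the mutant *myc2*. A loop was included when both anchors lie on the same chromosome and their midpoints are 40 to 200 kb apart. This gave 850 of 36723 loops in Col-0 (2.31%) and 1374 of 32312 loops in *myc2* (4.25%), or 2005 distinct loops, 219 of which are in both lists. Both genotypes were sampled as aerial parts of 2-week-old seedlings, grown at 22 °C with 16 h of light and 8 h of darkness a day. All samples were crosslinked in 1.5 mM EGS for 30 min and 1% formaldehyde for 10 min. The labels name the mutant only as *myc2*, and no allele is given in the sources used here. Each genotype has 2 replicates, which the authors combined before loops were called. The data are therefore 1 list per genotype, a difference between the lists has no replicate check, and intervals below cover counting error only.

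H3K4me3 is a histone mark of the first nucleosomes of transcribed genes, and ChIA-PET for this mark sequences the ends of DNA fragments that lay close together in marked chromatin. Each joined pair of ends is a paired-end tag (PET), a loop is a pair of anchors with more PETs between them than the caller expects, and the tags of an anchor are all ends that fall in it. In the compact *Arabidopsis* genome most such loops join genes that are near neighbours, so longer loops pass over many genes. MYC2 is a basic helix-loop-helix transcription factor of the jasmonate response that binds the G-box, and it is held back by JAZ repressors.

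Promoters of genes at the ends of these loops are shown first, since most of the loops have a promoter touching both anchors. They are the 250 bases before the annotated start of the gene in RefSeq TAIR10.1, 5′ to 3′ on the strand of the gene, with capitals at 4 motifs searched on both strands. The motifs are the G-box CACGTG, the telo-box AAACCCTA, the site II elements TGGGCC and TGGGCT, and the TATA box TATAAA, and where matches overlap the capitals run together. The first 4 belong to the strongest loops in both lists, and MYC2 and AOS, an enzyme of jasmonate synthesis, show the mutated gene and a jasmonate gene with a G-box. The windows are chr1:6466417-6466666 (+) for AGL65, chr3:22501294-22501543 (+) for AT3G60910, chr3:9835280-9835529 (−) for ICE1, chr5:18228518-18228767 (+) for NPR3, chr1:11801408-11801657 (−) for MYC2 and chr5:17099596-17099845 (−) for AOS. The first bases of the AGL65 window also lie in the noncoding RNA gene AT1G18745. The starts of AT3G60910, NPR3, MYC2 and AOS lie 8, 7, 323 and 43 bp outside the loop anchor. Their windows, with the motifs marked there, are therefore not part of the anchor. Of the ICE1 window only the bases next to the gene start, up to chr3:9835291, lie in the anchor, and its marked TATA boxes lie outside.
AGL65: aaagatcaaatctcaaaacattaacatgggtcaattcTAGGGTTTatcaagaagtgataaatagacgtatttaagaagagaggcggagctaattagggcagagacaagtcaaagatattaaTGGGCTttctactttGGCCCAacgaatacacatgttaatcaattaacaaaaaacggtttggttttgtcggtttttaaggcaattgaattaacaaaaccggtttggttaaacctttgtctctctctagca
AT3G60910: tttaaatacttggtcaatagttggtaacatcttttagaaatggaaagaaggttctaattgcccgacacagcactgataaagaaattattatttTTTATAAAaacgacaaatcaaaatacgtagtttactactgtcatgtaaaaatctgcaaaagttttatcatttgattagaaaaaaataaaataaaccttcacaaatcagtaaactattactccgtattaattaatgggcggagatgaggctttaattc
ICE1: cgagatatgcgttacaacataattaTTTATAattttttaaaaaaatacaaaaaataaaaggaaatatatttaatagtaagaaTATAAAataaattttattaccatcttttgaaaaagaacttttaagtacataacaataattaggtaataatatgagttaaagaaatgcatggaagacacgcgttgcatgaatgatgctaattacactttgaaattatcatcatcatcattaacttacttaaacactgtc
NPR3: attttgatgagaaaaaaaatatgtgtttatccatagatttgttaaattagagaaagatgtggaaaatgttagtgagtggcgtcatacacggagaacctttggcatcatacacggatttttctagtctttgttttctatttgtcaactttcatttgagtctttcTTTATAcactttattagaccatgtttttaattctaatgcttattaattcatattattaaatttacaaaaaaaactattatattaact
MYC2: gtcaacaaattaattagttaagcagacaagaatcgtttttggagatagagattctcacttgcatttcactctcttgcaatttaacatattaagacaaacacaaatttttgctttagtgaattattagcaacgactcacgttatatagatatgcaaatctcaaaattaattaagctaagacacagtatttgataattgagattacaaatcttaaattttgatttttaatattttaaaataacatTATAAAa
AOS: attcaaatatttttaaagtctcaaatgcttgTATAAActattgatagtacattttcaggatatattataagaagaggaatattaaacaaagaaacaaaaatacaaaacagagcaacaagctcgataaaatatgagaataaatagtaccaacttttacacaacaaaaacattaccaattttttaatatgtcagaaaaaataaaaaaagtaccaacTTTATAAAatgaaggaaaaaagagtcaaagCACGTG

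The lists differ in what they hold at all. Every loop of the Col-0 list has at least 10 PETs and every loop of the *myc2* list at least 5, so a loop missing from the *myc2* list may have had up to 4 PETs there, and one missing from the Col-0 list up to 9. Anchors held a median of 1470 tags in Col-0 and 1156 in *myc2*. Tags at the MYC2 anchor numbered 3562 in Col-0 against 1423 in *myc2*, and 4 of 14742 anchors with tags in both lists, this one included, had a ratio that low. All 4 green shoot marker genes lay at an anchor, and none of 6 root marker genes did, beside 16925 of all 27444 protein-coding genes.

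Most of these loops were close to the lower limit of 40 kb. Their span had a median of 46.4 kb among Col-0 loops and of 50.6 kb among those of *myc2*. Loops of 40 to 50 kb made up 556 of the 850 in Col-0 and 668 of the 1374 in *myc2*, while 15 and 78 spanned 100 to 150 kb and 1 and 21 spanned 150 to 200 kb. Just outside the lower limit stood a Col-0 loop of 39997 bp with 12 PETs between AT4G38670 and AT4G38781, and just inside it one of 40009 bp with 10 PETs between the cytochrome P450 genes CYP81H1 and CYP91A2. In *myc2* the nearest loops were one of 39999 bp with 7 PETs, between MYB32 and the catalase gene CAT2, and one of 40010 bp with 5 PETs, between AT3G06600 and AT3G36659. At the upper limit the longest Col-0 loop inside spanned 150639 bp and the next one outside 325416 bp. In *myc2* the corresponding spans were 198891 bp and 200385 bp.

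**Figure D1:**
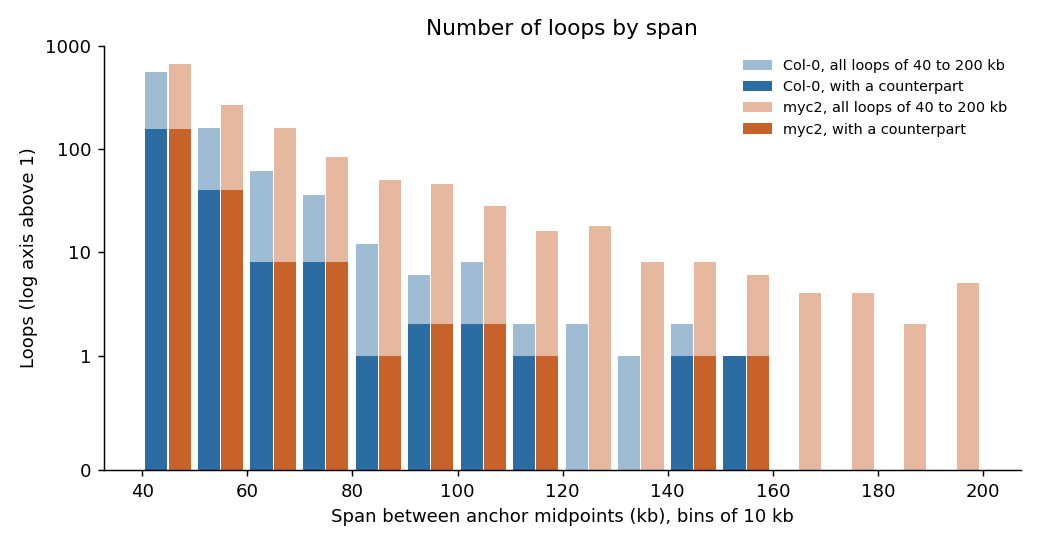
Number of loops in bins of 10 kb of span (x axis, kb; y axis, loops on a log axis above 1), with Col-0 in blue and *myc2* in orange and the loops that have a counterpart in the other list in the dark colour. The 40 to 50 kb bin holds 556 Col-0 and 668 *myc2* loops, and Col-0 has none past 151 kb.

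These loops were weak beside shorter ones. In Col-0 their PETs had a median of 11 (quartiles 10 and 13) and a highest value of 35, against a median of 16 and a highest value of 188 for loops under 40 kb. In *myc2* the median was 5 (quartiles 5 and 6) and the highest value 15, against 8 and 88. The share at the minimum of the list was 35.8% (32.6 to 39.0%, Wilson 95% interval) in Col-0 against 9.97% of shorter loops, and 60.3% (57.7 to 62.9%) in *myc2* against 20.9%. Only 27 loops in Col-0 and none in *myc2* had 20 or more PETs. In *myc2*, 26 of the 1374 loops reached the 10 PETs that all 850 Col-0 loops have.

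Their anchors were rich in tags. The anchor with fewer tags held a median of 2200 tags in Col-0 (quartiles 1641 and 2905) against 1335 for loops under 40 kb, and 1515 in *myc2* (quartiles 1110 and 2008) against 1062. The anchor with more tags held a median of 3797 and 2763 tags against 2334 and 1882. These anchors were also wide, with a median of 1447 bp in Col-0 and 1233 bp in *myc2* against 884 and 888 bp for shorter loops. A wide anchor can collect more tags, and the part of width in these values was not tested. The ratio of tags in *myc2* to Col-0 had a median of 0.796 over 2808 anchors of these loops and of 0.775 over all anchors with tags in both lists.

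To see which anchor pairs were listed at all, all 399927 pairs of anchors 40 to 200 kb apart were counted. The Col-0 list holds 0.213% of them and the *myc2* list 0.344%. In Col-0 the share fell from 2.2% (2.03 to 2.39%) at 40 to 50 kb to 0.195% at 60 to 80 kb and 0.0120% at 100 to 150 kb. In *myc2* it fell from 2.64% (2.45 to 2.85%) to 0.486% and 0.0623%. With the tags of the weaker anchor it rose, from 0.0119% under 500 tags to 5.38% (4.68 to 6.19%) at 3000 tags or more in Col-0, and from 0.0481% to 10.3% (8.26 to 12.8%) in *myc2*. The order of all 6 classes of span and all 6 classes of tags was the same in both lists.

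**Figure D2:**
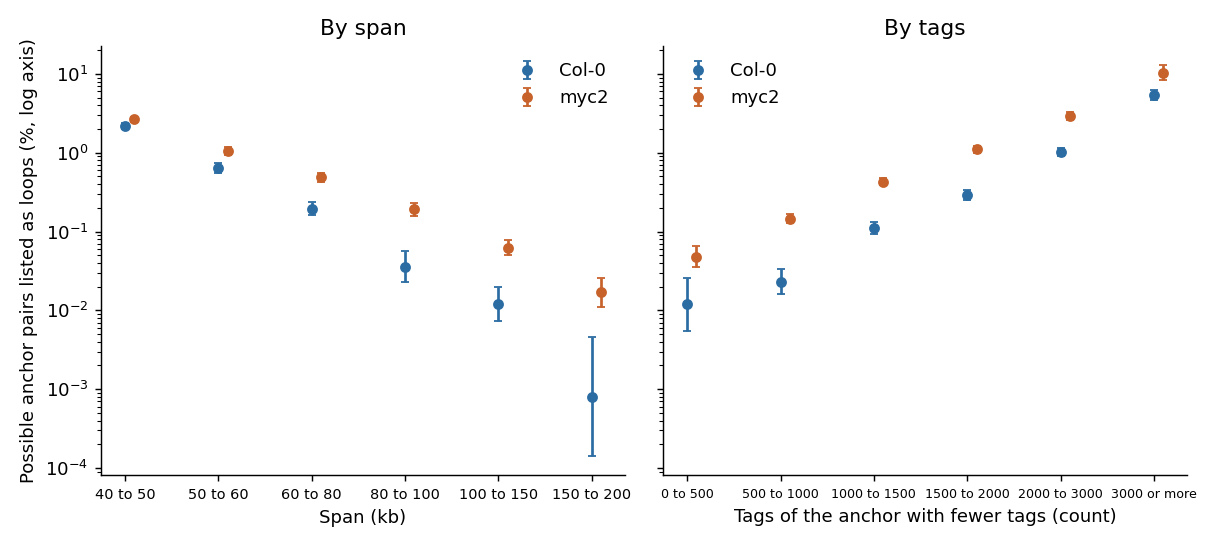
Share of all anchor pairs 40 to 200 kb apart that are listed as loops (y axis, percent on a log axis), by span in kb (left) and by the tags of the anchor with fewer tags (right), with 95% Wilson intervals for Col-0 (blue) and *myc2* (orange). The share falls with span from 2.2% and 2.64% at 40 to 50 kb and rises with tags to 5.38% and 10.3%.

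Pairs with few other anchors between them were listed more often at a like distance. Of pairs 40 to 50 kb apart with at most 1 anchor between them, 11.3% (7.61 to 16.6%) were listed in Col-0 and 10.3% (6.77 to 15.4%) in *myc2*. With 10 to 19 anchors between them the shares were 1.15% (0.886 to 1.49%) and 1.27% (0.994 to 1.63%). Still, a typical loop passed over many genes. A median of 12 gene starts and 7 anchors lay between the ends in Col-0, and 13 and 8 in *myc2*. No loop joined adjacent genes with no gene start between them, which 10.7% and 11.5% of shorter loops did.

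Most of the loops had a promoter touching both anchors, while fewer had one under stricter rules. A promoter, from 1 kb before to 0.5 kb after a gene start, touched both anchors of 806 Col-0 loops (94.8%, 93.1 to 96.1%) and 1295 *myc2* loops (94.3%, 92.9 to 95.4%), beside 92.6% and 92.8% of all loops in the lists, which lie just under these intervals. Where the promoter had to cover 50% of the anchor, the shares were 29.1% and 33.8%. With the nearest gene start at the middle of the anchor they were 30.9% and 34.9%. Gene bodies or their first kilobase upstream covered 50% of both anchors in 97.8% of Col-0 and 97.6% of *myc2* loops, beside 97.3% of all Col-0 loops. The anchors of all these loops were named by 1287 and 2147 genes, called joined genes here. Where both anchors had a gene, the strands lay in tandem in 51.0% and 51.7% of loops. They converged in 26.8% and 24.4% and diverged in 22.1% and 23.9%. Shorter Col-0 loops had 51.4%, 26% and 22.5% in the same order. In each list 1 loop joined genes of a family, with proteins at least 40% identical. They were CYP81H1 and CYP91A2 in Col-0 (48.3% identity) and AT3G14067 and AT3G14240 in *myc2* (54.4%). Of all 399927 anchor pairs 40 to 200 kb apart, 257 (0.0643%) held such genes. The 1 loop in Col-0 was 0.118% of its loops of this span.

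Promoters of the joined genes were searched for the motifs. The site II element stood in 28.3% (25.9 to 30.8%) of 1287 in Col-0 and 29.2% (27.3 to 31.1%) of 2147 in *myc2*. All 27443 promoters of this length held it in 19.2%, and those of genes at any anchor in 24.0% (23.4 to 24.7%). The telo-box stood in 5.05% and 4.84% of the joined genes against 4.49% of all promoters and 3.39% of genes at any anchor. The TATA box was in 41.7% (39.1 to 44.4%) and 42.2% (40.1 to 44.3%) against 47.3% of all promoters and 46.0% of genes at any anchor. The G-box, which MYC2 binds, was in 7.15% (5.86 to 8.69%) and 7.96% (6.89 to 9.19%) against 6.49% of all promoters and 7.36% of genes at any anchor. Neighbouring genes can share a window, so that these promoters are not independent.

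Few of these loops had a counterpart, a loop of the other list that overlaps both anchors. In Col-0, 631 of 850 loops (74.2%, 71.2 to 77.1%) had none in *myc2*, beside 32.2% of all Col-0 loops. In *myc2*, 1155 of 1374 (84.1%, 82.0 to 85.9%) had none in Col-0, beside 23% of all *myc2* loops. With 10 PETs or more asked of both lists the order turned, to 97.6% in Col-0 and 23.1% of 26 loops in *myc2*. Weak loops had fewer counterparts at any span, so the shares were compared at like PETs. Among Col-0 loops of 12 to 14 PETs, 71.5% (65.7 to 76.7%) of those of 40 to 200 kb had no counterpart, against 51.8% (50.4 to 53.1%) at 10 to 40 kb and 42.2% (40.2 to 44.2%) under 10 kb. At 15 to 19 PETs the shares were 63.2% (51.9 to 73.1%), 31.6% (30.3 to 33.0%) and 25.7% (24.2 to 27.2%). Among *myc2* loops of 8 or 9 PETs they were 57.7% (46.6 to 68.0%), 16.4% (15.1 to 17.8%) and 5.32% (4.48 to 6.31%). At the highest counts the loops were few. Of 25 Col-0 loops with 20 to 29 PETs, 6 had no counterpart (24.0%, 11.5 to 43.4%), against 12.5% (11.4 to 13.7%) at 10 to 40 kb, where the intervals overlap, and 8.97% (8.16 to 9.84%) under 10 kb, where they do not. Of 24 *myc2* loops with 10 to 14 PETs, 6 had none (25%, 12 to 44.9%), against 4.77% (4.02 to 5.66%) and 0.941% (0.677 to 1.31%), and neither interval overlaps.

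**Figure D3:**
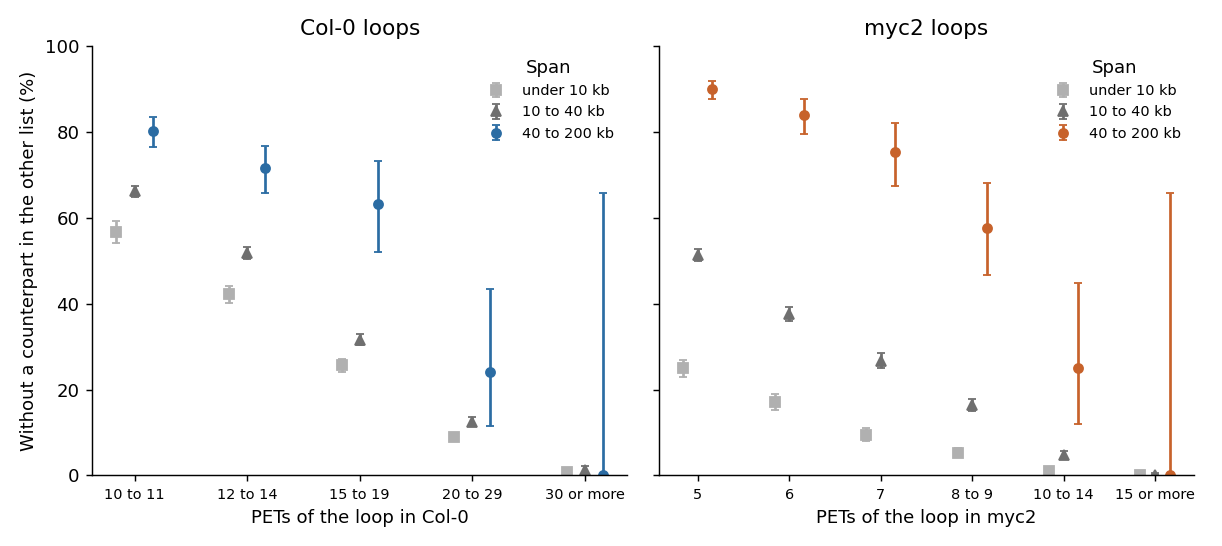
Share of loops without a counterpart in the other list (y axis, percent, with 95% Wilson intervals) by the PETs of the loop (x axis), for Col-0 loops (left) and *myc2* loops (right) in 3 classes of span. In each class of PETs under 20 in Col-0 and under 15 in *myc2*, loops of 40 to 200 kb have the highest share, such as 71.5% at 12 to 14 PETs in Col-0.

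A missing counterpart seldom meant that an anchor was missing, but few anchors were missing at all. Of the 15391 anchors of all Col-0 loops, 14742 were also in a *myc2* loop. Of the 631 Col-0 loops without a counterpart, 624 had both anchors in use in other *myc2* loops, and of the 1155 *myc2* loops 1132 did in Col-0. For 133 (21.1%, 18.1 to 24.4%) and 124 (10.7%, 9.08 to 12.7%) of them the other list had a loop with both anchors within 5 kb. Of anchor pairs in neither list, 1.08% had such a loop near them in *myc2* and 0.599% in Col-0. These pairs were not matched to the loops in span. Only 25268 of all 399927 possible pairs were 40 to 50 kb apart, where most Col-0 loops lay. The part of span in these shares was not tested. In Col-0, shared loops and loops without a counterpart had a median span of 45.8 and 46.6 kb, a median of 12 and 11 PETs, and a median of 2389 and 2151 tags at the weaker anchor. In *myc2* they lay further apart in span, with 45.8 and 52.3 kb, and had medians of 6 and 5 PETs and of 1849 and 1445 tags.

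Many anchor pairs were also joined through a further anchor that loops to both in the same list. This was so for 83.2% (80.5 to 85.5%) of the loops of 40 to 200 kb in Col-0 and 53.6% (50.9 to 56.2%) in *myc2*, a lower share than the 91.5% (91.2 to 91.8%) and 84.8% (84.4 to 85.2%) of loops under 40 kb. Among anchor pairs 40 to 50 kb apart it was so for 87.8% of listed and 30.1% of unlisted pairs in Col-0, and for 67.5% and 26.7% in *myc2*. Of the 631 Col-0 loops without a counterpart, the ends of 445 (70.5%) were joined through a further anchor in *myc2*. For the 1155 *myc2* loops it was 585 (50.6%) in Col-0. The tags of the anchors and the span differ between listed and unlisted pairs, and their part in these shares was not tested.

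In the 219 shared loops, the sum of PETs was 2884 for Col-0 and 1457 for *myc2*, and their ratio was 0.505 (0.474 to 0.538, exact binomial interval). A loop with 10 PETs in Col-0 can be in both lists only at a ratio of 0.5 or more, since *myc2* loops have at least 5. In the 21 shared loops with at least 20 PETs in Col-0, PETs summed to 483 and 198, a ratio of 0.410 (0.346 to 0.485). For shared loops of the same strength at 10 to 40 kb and under 10 kb the ratios were 0.389 (0.384 to 0.393) and 0.404 (0.401 to 0.406), both within that interval. These ratios leave out loops under 5 PETs in *myc2*, and the part left out differs with span. Of Col-0 loops with 20 to 29 PETs, 24.0% at 40 to 200 kb had no counterpart, against 12.5% at 10 to 40 kb and 8.97% under 10 kb. The ratios therefore do not show whether PETs changed alike at all spans. No scaling for depth is in these ratios.

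**Figure D4:**
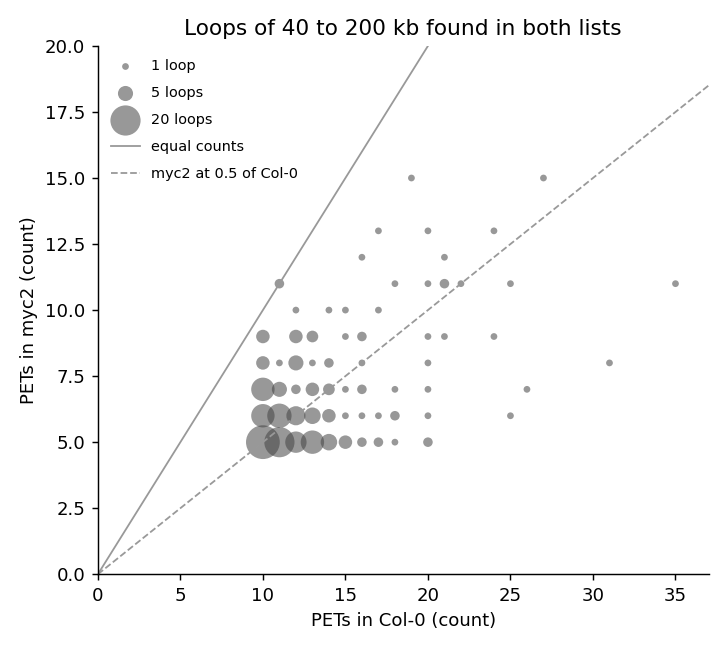
PETs in Col-0 (x axis) and *myc2* (y axis) of the 219 loops of 40 to 200 kb in both lists, with the area of a point giving the number of loops. All lie on or under the line of equal counts, 2 of them on it, and the lowest values stand at the list minimums of 10 and 5.

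The strongest shared loop, of 44.9 kb, joined PDCB3 (chr1:6419619-6422026), which encodes a plasmodesmal callose-binding protein, to AGL65 (chr1:6463885-6467634), a MADS-box transcription factor gene. Col-0 had 35 PETs for it and *myc2* 11, which is a ratio of 0.314 (0.144 to 0.633). Its anchors held 5066 and 7721 tags in Col-0 and 3920 and 6619 in *myc2*, and 8 gene starts lay between them. The AGL65 anchor made a second long loop in Col-0, to TRM3, with 19 PETs and none listed in *myc2*.

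The next loop joined AT3G60910 (chr3:22501552-22502480) to an anchor inside AT3G60961 (chr3:22546609-22548235), with 31 PETs in Col-0 and 8 in *myc2*. The latter anchor touches no promoter and lies within the body of AT3G60961, and only 1 anchor separates the ends. The loop from AT1G56345 (chr1:21093742-21095394) to TPR5 (chr1:21140969-21142568) had 27 and 15 PETs. In *myc2* 15 was the highest count, which the loop of AT3G19630 and AT3G19740, named after its value was seen, also had, with 19 PETs in Col-0. The ratios of the PDCB3, AT3G60910 and AT1G56345 loops were 0.314, 0.258 and 0.556, with intervals that overlap, and that of the AT3G19630 loop was 0.789.

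AT3G26630 was joined to ICE1, a bHLH activator of the cold response, by 26 PETs in Col-0 and 7 in *myc2*. TTR1, an immune receptor gene, was joined to NPR3, a receptor of salicylic acid, by 25 and 6 PETs, and its ratio of 0.240 (0.0805 to 0.599) was the lowest of all 219. Of the 1304 anchors in Col-0, 42.7% touched more than 1 promoter, so an anchor need not belong to the gene it is named by.

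The other loops among the strongest had 21 to 25 PETs in Col-0. RCA, which encodes Rubisco activase, was joined to AT2G39805 by 22 and 11 PETs, and the RCA anchor held the most tags of any anchor in a loop, 9142 in Col-0 and 7438 in *myc2*. CRD1, a gene of chlorophyll synthesis, was joined to AT3G57070 by 24 and 13 PETs. PHT2;1, the plastid phosphate transporter gene, was joined to AT3G26670 by 24 and 9 PETs. AT1G15710 was joined to the anchor of AT1G15830 and LHCB6 by 25 and 11 PETs. At 21 PETs in Col-0 4 loops tied, PATL2 to AT1G22630 (11 in *myc2*), AT4G29520 to ACHT2 (9), AT5G58090 to NdhN (11) and XYL4 to AT5G64670 (12).

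The lowest ratios after TTR1 were 0.250 at AT2G05810 to AT2G05920 and at GID1C, a gibberellin receptor gene, to AT5G27390, each with 20 PETs in Col-0 and 5 in *myc2*. At the other end 2 loops had as many PETs in *myc2* as in Col-0, 11 in each, AT1G51110 to AT1G51402 over 117 kb and AT4G15415 to AT4G15545 over 60.1 kb. None had more. At 9 PETs in *myc2* and 10 in Col-0 stood 4 loops, those of AT1G72430 to LOX4, AT1G20370 to OPCL1, AT5G19250 to ARIA and DES1 to AT5G28060. Counts this low leave wide intervals, and no single ratio here was tested.

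Among Col-0 loops without a counterpart the most PETs were 21, in 3 loops. They joined AT5G38640 to AT5G38720 over 40.4 kb, FDH, the formate dehydrogenase gene, to AT5G14910 over 46.5 kb, and RIBA3, of the riboflavin pathway, to ULI3 over 54.7 kb. At 20 PETs stood GAE2 to AT1G02110, DHDPS1 to AT3G60960 and AT4G02100 to AT4G02200. At 19 PETs stood EDA10 to AT1G02110, TRM3 to AGL65, AT1G22520 to AT1G22630, AT1G42480 to PMI1, SCR to AT3G54360 and AT3G57070 to BPG2. Each can have had up to 4 PETs in *myc2*. The RIBA3 and ULI3 anchors held 3608 and 6279 tags in *myc2*.

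Among *myc2* loops without a counterpart the most PETs were 13, between MEF14, of mitochondrial RNA editing, and AT3G26850 over 48.6 kb. GFA2 was joined to MET18 by 11 PETs. With 10 PETs stood AT2G04740 to EMB2761, AT2G15320 to FUT4, AT3G08920 to AT3G09020 and AT4G17390 to AT4G17520. With 9 PETs stood DYW1 to OSB1, AT1G76570 to AT1G76700, AT2G36730 to AT2G36835, AT3G25700 to AOC1, AT3G59630 to AT3G59830, AT4G32120 to AT4G32250, AT5G05570 to AT5G05750, AT5G58090 to TTL and ULI3 to AT5G60050. Those with 9 PETs or fewer would not have been listed at the Col-0 minimum of 10. The FUT4 anchor is in no Col-0 loop.

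Both of the longest Col-0 loops ended at PMI1 on chromosome 1, in a gene-poor stretch. PMI1, a gene of chloroplast movement, was joined over 151 kb to GAPB, a chloroplast glyceraldehyde-3-phosphate dehydrogenase gene, by 20 PETs in Col-0 and 9 in *myc2*. It was joined over 148 kb to AT1G42960 by 14 and 8 PETs, and toward the other side to AT1G42470 by 15 and 7, to AT1G42440 by 14 and 7 and to AT1G42480 by 19 in Col-0 only. Between PMI1 and GAPB lie 6 gene starts and 1 anchor. The next in length in Col-0 joined AT4G20480 to AT4G20880 (145 kb, 11 PETs), GBSS1 to GTL1 (131 kb, 10 PETs) and bHLH115 to AT1G51402 (124 kb, 10 PETs), and these 3 were not listed in *myc2*. Of all 15 Col-0 loops of 100 to 150 kb, 11 had no counterpart, and the shared ones include AT1G51110 to AT1G51402 and AT3G60910 to PEX11E. The 5 longest of *myc2*, from 192 to 199 kb, had 5 or 6 PETs each and none was listed in Col-0. They include EP3 to the antenna gene LHCA1 over 194 kb with 6 PETs, across 47 gene starts.

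Gene-poor windows, of 500 kb with under 0.5 of the median number of 131 gene starts, made up 38 of 240 windows. They held 29 Col-0 loops (3.41%, 2.39 to 4.86%) and 47 *myc2* loops (3.42%, 2.58 to 4.52%), against 0.686% and 0.718% of shorter loops. The Col-0 loops there passed over a median of 4 gene starts, against 12 elsewhere, and 48.3% had no counterpart, against 75.2% elsewhere. In *myc2* the shares without a counterpart were 68.1% and 84.6%. The gene-poor loops crowd at few places and are not independent, with more than 1 shared loop each at PMI1, RIPK and AT4G03940. PETs were not matched, and Col-0 loops in gene-poor windows had a median of 12 against 11 elsewhere. Whether the shares differ because of gene density was not tested. By chromosome, loops of 40 to 200 kb made up 1.98% (chromosome 5) to 2.52% (chromosomes 1 and 3) of Col-0 loops, and 3.97% (chromosome 5) to 4.51% (chromosome 2) of *myc2* loops. Within 1 Mb of a chromosome end stood 14.8% (12.6 to 17.4%) of the Col-0 loops and 13.5% (11.8 to 15.4%) of the *myc2* loops, against 13.3% and 13% of shorter loops.

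The loops overlapped in blocks. In Col-0 they formed 380 blocks of overlapping loops, of which 44 held 5 or more and together held 331 loops (38.9%). In *myc2* there were 502 blocks, and 84 of them held 655 loops (47.7%). The largest Col-0 block, of 17 loops with 229 PETs over 180 kb, ran from AT3G60750 to HDG1 on chromosome 3 (chr3:22452745-22632293). The largest *myc2* block, of 23 loops with 133 PETs, starts within it (chr3:22470462-22865607). At AT3G60910 in this block 6 loops of 40 to 200 kb ended in the Col-0 list and 4 in the other, and 3 were shared. Besides AT3G60961 the partners in Col-0 were AT3G60750, AT3G61010, NTMC2T4, PP2-A13 and PEX11E, a peroxisome division gene, with 10 to 13 PETs each.

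Of the 1304 anchors used in Col-0, 80.8% had a single such loop, and at most 6 ended at an anchor. In *myc2* the most were 10, at NdhN (chr5:23558688-23563093), a subunit gene of the chloroplast NDH complex. The NdhN anchor, 4405 bp wide, had 8246 Col-0 tags and 6147 *myc2* tags. Its 6 long loops in Col-0 had 81 PETs and its 10 in *myc2* had 62, and 4 were in both lists. The strongest went to AT5G58090 over 53.6 kb with 21 PETs in Col-0 and 11 in *myc2*. In *myc2* 5 more reached from 71.9 kb (FIP1[V]) to 99.9 kb (AT5G57950) on the same side, with 5 or 6 PETs each, under the minimum of the Col-0 list.

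**Figure D5:**
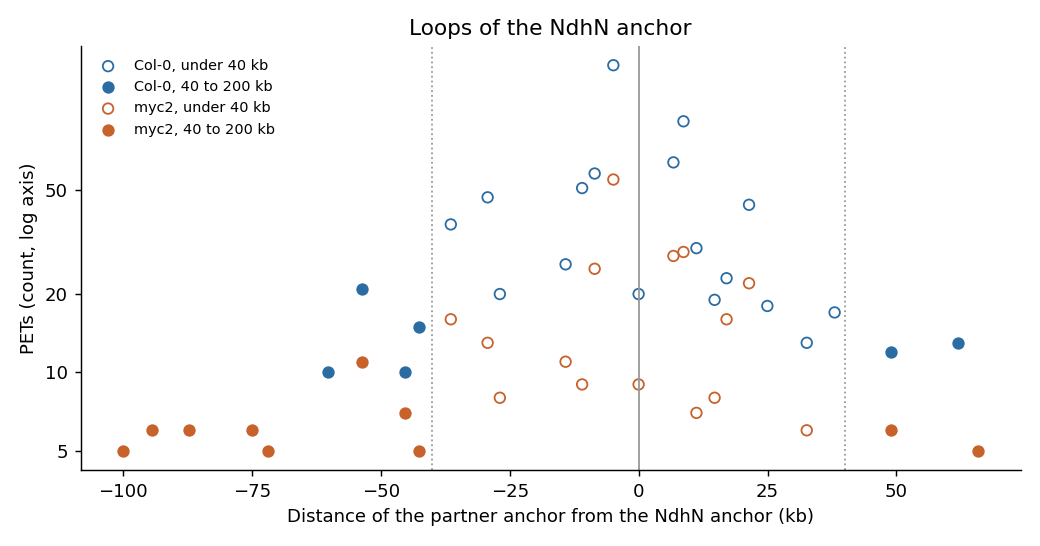
Loops of the NdhN anchor, by the distance of the partner anchor from it (x axis, kb; dotted lines at 40 kb) and PETs (y axis, log axis), with loops of 40 to 200 kb as filled and shorter loops as open points, Col-0 in blue and *myc2* in orange. Of the *myc2* loops, 5 lie farther than 70 kb on the left side with 5 or 6 PETs, where Col-0 has none listed.

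At 5 loops in *myc2* further anchors tied with that of AT1G02110 and are not described. Other anchors with most of these loops were those of AT1G02110 with 6 in Col-0 and 5 in *myc2*, AT1G51402 with 6 and 4, AT4G38550 with 6 and 3 and AT5G05550 with 6 and 2. At AT1G02110 all 6 Col-0 partners lay on the same side, 40.4 to 71.9 kb away, while 2 of the *myc2* partners, AT1G02300 and AT1G02305, lay on the other. None of the loops at AT5G05550 was shared. In *myc2* GUN5, which encodes a subunit of magnesium chelatase, had 7 and 4 in Col-0, with 3 shared, to KEG (12 PETs in Col-0, 6 in *myc2*), ZIF1 (16 and 9) and AT5G13760 (11 and 6). AT3G08920 had 6 in *myc2* and 4 in Col-0, and AKR2, a chaperone gene for chloroplast envelope proteins, 6 and 1. All 9 of these anchors but that of AT3G60910, with 2328 tags in Col-0, held 4493 tags or more there.

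Genes of jasmonate synthesis were often at the end of such a loop. Of 14 in the list, all at an anchor, 4 were in a loop of 40 to 200 kb in Col-0 and 8 in *myc2*, beside 10.1% and 16.2% of all 16925 genes at an anchor. The list is small, so these are counts and not a test, and it was chosen with earlier results of these data known. OPCL1, which activates jasmonate precursors, had the most, with 4 in Col-0. It was joined to AT1G20370 by 10 PETs in Col-0 and 9 in *myc2*, to AT1G20380 by 11 and 8, to DRT112, a plastocyanin gene, by 11 and 5, and to ASG5 by 11 in Col-0 only.

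Lipoxygenase genes, which start the synthesis of jasmonate, came next. LOX3 was joined to AT1G17520 by 12 PETs in Col-0 against 5 in *myc2*, and to AlaAT1 by 13 in Col-0 only. LOX4 was joined to AT1G72430 by 10 and 9 PETs, and in *myc2* only to TIM23-2 and AT1G72790 by 5 each. LOX2 was joined to AT3G45260 by 7 PETs in *myc2* only. The anchors of LOX3 and LOX4 had 4809 and 6004 tags in Col-0.

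The allene oxide cyclase genes AOC1 and AOC3 lie near each other and were joined to the same 2 partners, CHUP1 and AT3G25700. AOC3 had 13 PETs in Col-0 and 5 in *myc2* to AT3G25700, and 11 in Col-0 only to CHUP1. AOC1 had 9 PETs to AT3G25700 and 6 to CHUP1 in *myc2* only. The AOC genes of this cluster are close copies of each other, so how reads were placed between them is uncertain. AOC4 and AOS, which encodes allene oxide synthase, each had a single loop of 5 PETs in *myc2* only, to AT1G13380 and AT5G42765. Of these 8 genes only AOS has a G-box in the 250 bases shown above.

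Of 18 genes of jasmonate signalling, 3 were in such a loop in Col-0 (16.7%) and 5 in *myc2* (27.8%), beside 10.1% and 16.2% of all genes at an anchor. None of their 8 loops was in both lists, where 74.2% and 84.1% of all loops of this span had no counterpart. MYC2 was joined to AT1G32740 over 45.4 kb by 10 PETs in Col-0, and to the neighbouring AT1G32730 by 5 in *myc2*. Its anchor also covers AT1G32630, by which it is named under the rule used here. MYC4, a close relative, was joined to HSF1 by 10 PETs in Col-0 and to AT4G17790 by 6 in *myc2*. JAZ5, a repressor of the pathway, was joined to AT1G17450 by 11 PETs in Col-0 only. JAZ9, JAZ12 and the co-repressor TPL had 5 PETs each in *myc2* only, JAZ9 to the auxin synthesis gene TAA1.

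Of 20 light-harvesting and Rubisco genes at an anchor, 7 were in such a loop in Col-0 (35.0%) and 4 in *myc2* (20.0%). Over all genes at an anchor these shares were 10.1% and 16.2%. LHCA1, of the photosystem I antenna, was joined to the GATA factor gene BME3 by 18 PETs in Col-0 against 11 in *myc2* and to TON1A by 13 and 9. LHCB6 lies at an anchor that is named by AT1G15830 under the rule used here. It had 4 in Col-0, among them AVP1, the vacuolar proton pump gene, with 13 PETs in Col-0 only. LHCB5 was joined to AT4G10430 by 10 and 7 PETs. LHCA3, LHCB2.2 and RBCS1A, a small subunit gene of Rubisco, each had a single loop, of 10 to 12 PETs in Col-0 only. LHCB3 had 2 in Col-0 and a different one in *myc2*.

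Of 17 clock genes 4 were in such a loop in Col-0 (23.5%) and 3 in *myc2* (17.6%). The shares over all genes at an anchor were 10.1% and 16.2%. RVE8 and RVE4, MYB-like activators of the evening genes, each had a shared loop, RVE8 to AT3G09440 with 15 and 6 PETs and RVE4 to AT5G02970 with 12 and 9. LNK1 and LNK2, their coactivators, had none shared. The anchor of RVE4 is named by AT5G02830 under the rule used here. LNK1 was joined to GCH by 13 PETs in Col-0, and LNK2 to AT3G54360 by 11 in Col-0 and to AT3G54680 by 5 in *myc2*. None of 10 genes of abscisic acid signalling at an anchor was in such a loop in either list. At shares of 10.1% and 16.2% over all genes, few of 10 would be. Of 10 regulators known as Polycomb targets only 1 was at any anchor, beside 16925 of all 27444 protein-coding genes. That gene was in none of these loops, and a single gene gives no share to compare.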

How the data were processed

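H3K4me3 ChIA-PET was done on shoots of 2-week-old seedlings of Col-0 and *myc2*, with 2 replicates each that the authors pooled. ChIA-PET Tool V3 was run by the authors on TAIR10 between anchors from merged H3K4me3 ChIP-seq peaks, with loops kept at an FDR under 0.05 and a PET minimum set by depth. Which aligner was run is not given in the sources used here. In each deposited list, a loop has its PET count and the tag count of both anchors, unscaled, with the authors' p-value and FDR and the −log10 of both. These p-values and FDRs were used only for a stricter FDR as an alternative.

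Loops on the same chromosome with anchor midpoints 40 to 200 kb apart were kept. Anchor coordinates are those of the lists. Genes and promoters were taken from RefSeq TAIR10.1, within whose chromosomes all anchors lie. The gene of an anchor is the protein-coding gene that, with 1 kb upstream, covers at least 50% of it, with the largest overlap. For the gene lists, a gene was also counted at an anchor that is named by another gene. A counterpart overlaps both anchors by at least 1 bp. Same-family genes have proteins at least 40% identical over at least 50% of the length. Intervals are Wilson intervals for shares and exact binomial intervals for ratios, at 95%, and cover counting error only. PETs carry no molecular identifiers, and loops that share anchors are not independent. No p-value was computed between 1 list per genotype. The overlap of loops was tested on simulated data. The members and lists were chosen with earlier results of these data known. Named loops are those with most PETs among shared loops and among loops of each list alone, the longest, those of the anchors with most loops, the highest and lowest PET ratios, those at genes of 8 lists, and those nearest the span limits, with loops that tie on PETs for the last place added after their values were seen. For the promoters shown, windows that overlap another protein-coding gene were left out, as was AT3G60961, whose anchor lies far inside the gene, and ICE1, NPR3, MYC2 and AOS were chosen after their values were seen. Scripts ran in Python 3.11.15 on numpy 2.4.6 and pandas 2.3.3, with scipy 1.17.1, biopython 1.88 and matplotlib 3.10.9.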

Additional observations from a re-analysis of the deposited data

How the results depend on the processing

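Of 51 values under other settings, 28 did not move beyond 1.5 times (counts) or out of the interval of the main value (others). Spans between inner or outer anchor ends moved none of them, nor did anchors widened by 1 kb (72.7% and 83.2% without a counterpart). An FDR under 0.001 could move none, since the highest FDR was 9.29e-12 in Col-0 and 7.34e-05 in *myc2*. Both lists use the same merged anchors, and overlap rules of identical anchors or 50% gave the same values. A minimum of 10 PETs leaves the Col-0 loops as they are. Such values are among the 28, so that count does not measure how firm the results are. At 10 PETs or more in both lists, the order of the lists turned in the number of loops and the share without a counterpart. *myc2* then held 26 loops against 850 in Col-0, 97.6% of Col-0 loops and 23.1% of *myc2* loops had no counterpart, and the PET ratio was 0.601. The median in *myc2* was then 11 PETs and 2406 tags (1908 to 3407) at the weaker anchor, and 100% (87.1 to 100%) had a promoter at both anchors. The last 2 values are above those of Col-0, but their intervals hold the Col-0 values of 2200 tags and 94.8%. At 20 PETs the lists held 27 and 0 loops, which left no share to compute. At 50 to 150 kb there were 293 and 685 loops, 78.5% and 90.8% had no counterpart, the weaker anchor held a median of 2420 and 1564 tags, and 5.12% and 4.67% lay in gene-poor windows. With a promoter over 50% of the anchor the share with a promoter at both ends was 29.1% and 33.8%, and with the nearest gene start 30.9% and 34.9%. With anchors of at least 300 tags in both lists, 0.253% and 0.403% of pairs were listed.

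No paired analysis was possible because the replicates of each genotype were pooled before loops were called, and for the same reason leaving out a replicate was not possible. The PET minimums of 10 and 5 limit every comparison of the lists.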
